A study of Mus musculus with 18 samples.

Results

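The imprinted Dlk1-Dio3 locus of mouse chromosome 12 was followed through 4 of its transcripts, Meg3, Rian, Mirg and Dlk1, in RNA-Seq counts of colon crypts. The members were chosen by symbol from a table of 24047 gene rows, after Meg3 and Rian had been singled out by their difference between CONV-Ern2-/- and CONV-WT libraries, so every comparison that used CONV libraries is given as a description with no test. The other comparisons used libraries that this choice did not draw on, although the lists and members were chosen with results of the same data set known. Each of the 4 symbols matched 1 row, and every row held at least 1 count in some library.

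The 18 libraries came from C57BL/6 mice labelled WT or Ern2-/-, with 3 libraries in each of 6 groups. Ern2 encodes ERN2 (IRE1β), a sensor of endoplasmic reticulum stress in mucosal epithelium. GF-WT and GF-Ern2-/- mice were germ free. COLONIZED-WT and COLONIZED-Ern2-/- mice had been germ free, received the cecal content of conventional WT mice by gavage and were examined after 14 days, whereas CONV-WT and CONV-Ern2-/- mice were raised conventionally. Intact crypts were detached with EDTA and collected on a strainer, so any cell type left on a crypt entered the library, and ages were not given in the sources used here.

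Imprinted genes are expressed from 1 parental chromosome. At this locus Dlk1, Rtl1 and Dio3 are expressed from the paternal chromosome and encode proteins, while Meg3, Rian and Mirg are noncoding RNAs of the maternal chromosome that lie in tandem on the same strand and may be parts of 1 long transcription unit. Dlk1 encodes a transmembrane protein related to Notch ligands, Meg3 (also called Gtl2) is a long noncoding RNA, Rian carries C/D box small nucleolar RNAs, and Mirg hosts a large microRNA cluster. These transcripts are known from embryo, placenta, brain and endocrine tissue more than from intestinal epithelium.

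In coordinates of GRCm38, the build that the submitters' processing notes name as mm10, RefSeq placed Dlk1 at chr12:109452485-109463336, Meg3 at chr12:109540996-109571729, Rian at chr12:109603945-109661716 and Mirg at chr12:109734981-109749458, all on the plus strand. RefSeq listed 103 genes from Dlk1 to Dio3 over 829 kb. Of these, 74 had a row in the count table and 24 had at least 1 count. The 58 microRNA rows together held 21 counts, in 12 rows. A library of polyadenylated RNA does not measure mature microRNAs, so the host transcripts are the only measure of the cluster here.

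**Figure D1:**
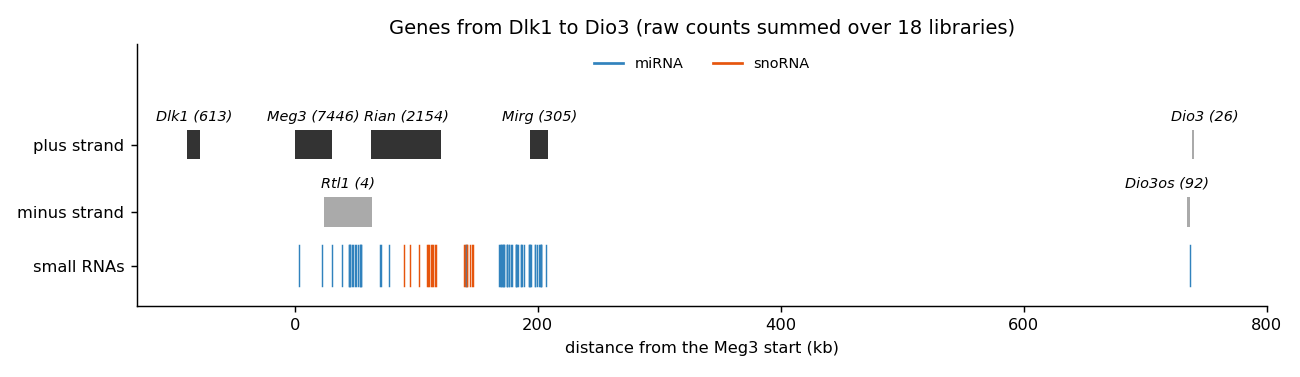
Genes from Dlk1 to Dio3 by distance from the Meg3 start in kb, with the 4 members in black, other genes in grey, microRNAs and small nucleolar RNAs as ticks, and raw counts summed over 18 libraries in brackets. Meg3 held 7446 counts, Rian 2154, Dlk1 613 and Mirg 305, against 4 for Rtl1, 92 for Dio3os and 26 for Dio3.

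The Meg3 promoter is shown because Meg3 is the member with the most counts and lies first among the noncoding members, and a Dlk1 window because Dlk1 is the paternally expressed member and followed a partly different pattern. Each run is 250 bases before to 50 after an annotated start in RefSeq GRCm38.p6, plus strand, Meg3 at chr12:109540746-109541045 and Dlk1 at chr12:109452573-109452872. The Dlk1 window is the 1 that RefSeq gave for this gene and lies inside the gene span printed above, so it does not cover the bases before the first base of that span. Capitals mark letters that match a cAMP response element or a TATA box on either strand.
Meg3: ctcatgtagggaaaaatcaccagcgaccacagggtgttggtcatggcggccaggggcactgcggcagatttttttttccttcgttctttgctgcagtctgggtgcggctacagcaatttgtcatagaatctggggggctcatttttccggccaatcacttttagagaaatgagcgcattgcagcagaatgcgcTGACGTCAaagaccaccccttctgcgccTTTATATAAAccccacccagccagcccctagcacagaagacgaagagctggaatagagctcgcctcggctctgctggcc
Dlk1: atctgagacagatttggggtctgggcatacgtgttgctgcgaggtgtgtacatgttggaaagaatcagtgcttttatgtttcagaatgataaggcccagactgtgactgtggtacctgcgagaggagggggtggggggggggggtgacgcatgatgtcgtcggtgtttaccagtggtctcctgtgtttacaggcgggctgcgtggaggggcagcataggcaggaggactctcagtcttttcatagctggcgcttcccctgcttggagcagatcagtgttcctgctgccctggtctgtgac

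The cAMP response element was searched as TGACGTCA, which reads the same on both strands. In the Meg3 window it began 57 bases before the start, and 1.79% of 32851 RefSeq windows of this length held it. The TATA box was searched as TATAAA. It was matched on both strands of 1 stretch of the Meg3 window, at 29 and 25 bases before the start, where the matches overlap, and 13.6% of all windows held it. The windows shown for Dlk1, and those of Rian, of Mirg and of a second Meg3 start, matched neither. The Meg3 window had 13 CG dinucleotides and the Dlk1 window 9, against a median of 7 over all windows.

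RefSeq placed 10 microRNA hairpins with 19 mature products inside Mirg, 3 hairpins inside Rian, and the hairpins Mir1906-1 and Mir770 inside Meg3. The mature sequences below show what the Mirg transcript carries that the counts do not measure, namely products of the cluster that share a seed (bases 2 to 8, in capitals) with another product of the locus.
mmu-miR-453: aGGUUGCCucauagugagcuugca
mmu-miR-496a-5p: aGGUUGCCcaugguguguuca
mmu-miR-410-5p: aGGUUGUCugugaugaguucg
mmu-miR-494-5p: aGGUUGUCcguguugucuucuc

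The first pair, both inside Mirg, shared 1 seed. The seed of miR-410-5p, inside Mirg, was shared by miR-494-5p, which lies between Rian and Mirg.

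Library totals ran from 5865619 to 23154481 counts, so 3 counts in a library, taken here as the floor of detection, equalled 2.08 to 8.28 normalized counts, and the floor was highest in CONV-Ern2-/- replicates 2 and 3. Normalized counts are raw counts divided by DESeq2 size factors over all 18 libraries. The targeted gene did not separate the labels: normalized Ern2 counts ran from 1909 to 3100 in the WT libraries and from 386 to 3336 in the libraries labelled Ern2-/-, and a count per symbol does not tell which exons were read, so genotypes are given below as labelled. CONV-WT replicate 3 stood apart, with 320 summed normalized counts of 8 smooth muscle markers against 17.0 and 40.5 in its group and 25213 for Muc2, the main secreted mucin, against 223342 and 194319. GF-Ern2-/- replicate 2 stood apart by epithelial markers, 630359 against 221201 and 236710, as did CONV-WT replicate 3, 448804 against 204226 and 212768. None of 12 epithelial markers was at 0 in any group.

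Meg3 was scarce in germ-free crypts and abundant in WT crypts with microbes. Replicates 1, 2 and 3 had 1.54, 0 and 4.17 normalized counts in GF-WT and 5.22, 1.00 and 6.25 in GF-Ern2-/-. COLONIZED-WT replicates reached 868, 416 and 432, and CONV-WT replicates 1286, 3002 and 734. The 6 WT libraries with microbes were thus all above the 6 germ-free libraries, with no overlap.
In the libraries labelled Ern2-/-, Meg3 had 88.3, 59.4 and 44.1 normalized counts after colonization and 9.40, 84.4 and 24.8 in CONV mice. These lay between the germ-free libraries and the WT libraries with microbes. By mean the order was CONV-WT at 1674 ± 1182 (SD, n = 3), COLONIZED-WT at 572 ± 257, COLONIZED-Ern2-/- at 63.9 ± 22.4, CONV-Ern2-/- at 39.6 ± 39.6, GF-Ern2-/- at 4.16 ± 2.78 and GF-WT at 1.90 ± 2.11. CONV-WT and COLONIZED-WT overlapped, as did COLONIZED-Ern2-/- and CONV-Ern2-/-, and the germ-free groups.

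Rian, the small nucleolar RNA host, followed the same order among the WT groups. Germ-free WT replicates had 1.54, 0.701 and 0 normalized counts of it, colonized WT replicates 92.0, 130 and 197, and conventional WT replicates 522, 837 and 113. Under the Ern2-/- label it stood at 0.746, 0 and 0 when germ free, 52.0, 24.3 and 25.1 after colonization, and 2.09, 6.67 and 8.28 in CONV mice. Every germ-free library held 2 Rian reads or fewer. The CONV-Ern2-/- values came from 2, 3 and 3 reads and so stood at or under the floor in each library.

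Mirg, the microRNA host, had any read at all in 8 of 18 libraries. COLONIZED-WT replicates had 27.8, 25.7 and 28.6 normalized counts of it (27.4 ± 1.49, SD, n = 3) and CONV-WT replicates 58.5, 121 and 5.48. In COLONIZED-Ern2-/- it had 3.56, 1.80 and 0, from 5, 2 and 0 reads. No read fell on Mirg in the 6 germ-free libraries or in CONV-Ern2-/-, which allows up to 0.719 normalized counts in GF-WT, 0.910 in GF-Ern2-/- and 1.69 in CONV-Ern2-/- (3 reads over the group).

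Dlk1, the paternally expressed member, had a low level in germ-free crypts and was the least regular of the 4. Germ-free replicates had 1.54, 1.40 and 5.55 normalized counts under the WT label and 2.24, 2.01 and 5.21 under Ern2-/-. Colonized replicates had 13.5, 43.3 and 35.7 under WT and 11.4, 19.8 and 0 under Ern2-/-, and conventional replicates 124, 293 and 0 under WT and 1.04, 0 and 0 under Ern2-/-. CONV-WT replicate 3 held no Dlk1 read while it held 402 Meg3 reads, and COLONIZED-Ern2-/- replicate 3 held none beside 44 Meg3 reads.

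**Figure D2:**
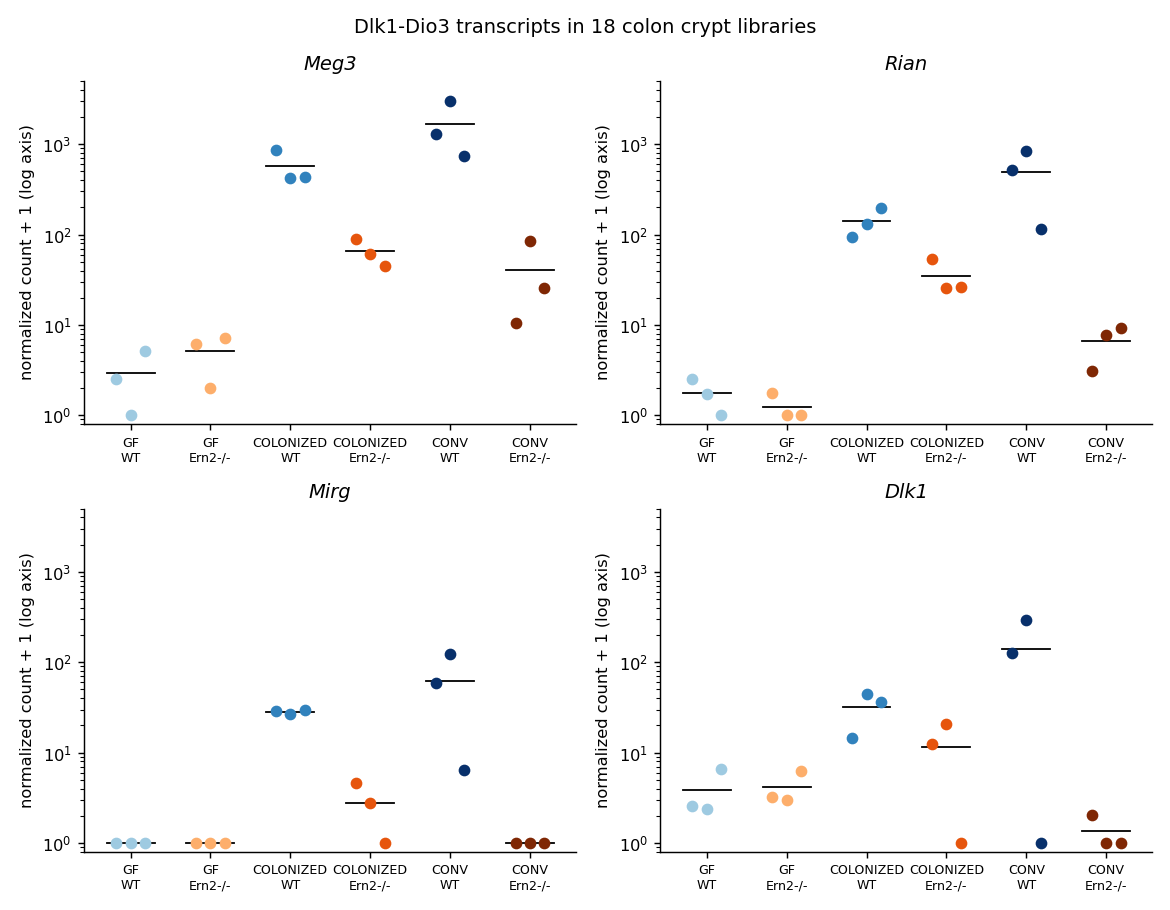
Normalized count + 1 on a log axis for each member, 1 point per library and a bar at the group mean, in 6 groups of 3. For Meg3 and Rian the libraries labelled Ern2-/- with microbes sit above the germ-free libraries and below the WT libraries with microbes, whereas in CONV-Ern2-/- Mirg is at 0 and Dlk1 (1.04, 0 and 0) is under the floor of 3 counts in each library. Rian in CONV-Ern2-/- rests on 2, 3 and 3 reads, at or under that floor.

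Levels of different members were compared per kb of exon, from the merged exons of GENCODE M21. In CONV-WT, Meg3 stood at 92.5 ± 65.4 normalized counts per kb (SD, n = 3), Rian at 26.9 ± 19.9, Dlk1 at 24.6 ± 26.0 and Mirg at 8.48 ± 7.96. In COLONIZED-WT the order was the same, with 31.6 ± 14.2, 7.66 ± 2.91, 5.46 ± 2.74 and 3.75 ± 0.204. The levels of Rian and Dlk1 did not differ beyond their spread in either group. The counted transcript length is not given in the sources used here, so these levels depend on the exon model.

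The first tested comparison asked what 14 days of microbes did in WT crypts. All 4 members rose in COLONIZED-WT against GF-WT, at an adjusted p under 0.01 in DESeq2, where 9.35% of all genes tested were called higher. In log2 fold change (± SE) Meg3 rose by 8.23 ± 0.86 (DESeq2 adjusted p = 4.28e-19), Rian by 7.60 ± 0.90 (1.04e-14) and Dlk1 by 3.44 ± 0.73 (4.60e-05). Mirg was at 0 in GF-WT, so its fold was a lower bound, at least 38.0-fold higher (DESeq2 adjusted p = 9.05e-08).
By pooled reads, 2329 Meg3 reads against 8 gave a ratio of 302 (95% exact interval 153 to 700), 554 Rian reads against 3 a ratio of 191 (65.1 to 931), and 123 Dlk1 reads against 12 a ratio of 10.6 (5.87 to 21.1). These intervals cover counting error only. Over DESeq2 fits that each left out 1 of the 6 libraries, the log2 change of Meg3 ran from 7.63 to 9.62, that of Rian from 7.00 to 8.65 and that of Dlk1 from 3.11 to 4.41, and all were called in each fit. For all 4 members every COLONIZED-WT library lay above every GF-WT library, which held for 22.9% of all genes with 10 or more counts.
The Dlk1 call was lost in edgeR (adjusted p = 0.0120) and in 1 fit of all 18 libraries (DESeq2 adjusted p = 0.0963). A library was given a Y-linked pattern where reads of Ddx3y, Eif2s3y, Kdm5d and Uty together outnumbered those of Xist. The pattern was seen in 2 of 3 COLONIZED-WT and 0 of 3 GF-WT libraries. With it as a covariate Meg3, Rian and Dlk1 were still called in DESeq2 (adjusted p of 9.91e-06, 2.49e-10 and 0.00948), while Mirg had no adjusted p.

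In the libraries labelled Ern2-/-, Meg3 and Rian rose with colonization and Dlk1 did not pass the test. Against GF-Ern2-/-, Meg3 rose by 3.93 ± 0.61 on the log2 scale (DESeq2 adjusted p = 2.59e-08) and Rian by 6.68 ± 1.33 (2.63e-05), where 3.60% of all genes tested were called higher. Both were called in each of 6 DESeq2 fits that left out 1 library, at 3.51 to 4.27 for Meg3 and 6.22 to 7.49 for Rian. The Rian estimate rested on 1 germ-free read against 125, a pooled ratio of 117 (95% exact interval 20.7 to 4673), and Meg3 on 14 against 234, a ratio of 15.7 (9.17 to 29.2).
Dlk1 differed by 1.74 ± 1.24 (DESeq2 adjusted p = 0.405, 95% interval -0.69 to 4.16). Mirg had 7 reads, in 2 libraries, against 0, a fitted difference with a 95% interval from -2.44 to 9.26, and was left without an adjusted p by the filter of DESeq2 on low means. Meg3 and Rian did not overlap between the groups, as held for 16.0% of all genes with 10 or more counts in this direction, and Mirg and Dlk1 did. Both calls were lost in edgeR (adjusted p of 0.0159 for Meg3 and 0.0147 for Rian).

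The genotype labels were then compared after colonization. Meg3 fell by 3.16 ± 0.32 on the log2 scale in COLONIZED-Ern2-/- against COLONIZED-WT (DESeq2 adjusted p = 7.08e-19) and Rian fell by 2.03 ± 0.38 (2.06e-05), where 0.853% of all genes tested were called lower. Pooled reads gave 8.69-fold less Meg3 (95% exact interval 7.59 to 9.98) and 3.87-fold less Rian (3.18 to 4.74).
Mirg stood at 7 reads against 110, a fitted difference of -3.82 ± 0.73 and 13.7-fold fewer reads (95% exact interval 6.44 to 34.9). The default filter of DESeq2 on low means left Mirg without an adjusted p, whereas with that filter set at alpha 0.01 or switched off, both chosen after results were seen, it had an adjusted p of 4.18e-05 or 5.29e-05. Dlk1 differed by -1.56 ± 0.78 and was not called (DESeq2 adjusted p = 0.217, 95% interval -3.09 to -0.02).
For Meg3, Rian and Mirg every library labelled Ern2-/- lay below every WT library, which held for 14.0% of all genes with 10 or more counts. Neither Meg3 nor Rian was called in edgeR (adjusted p of 0.0454 and 0.109) or in 1 fit of all 18 libraries (DESeq2 adjusted p of 0.0264 and 0.0794) while Meg3 was estimated at -3.15 and -3.16 and Rian at -2.03 and -2.04 there. Mirg, at -3.75 and -3.87, was not called in these 2 settings either (adjusted p of 0.0659 in edgeR and 0.0654 in DESeq2).

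In germ-free crypts the genotype labels gave no call for any member, where 0.0350% of all genes tested were called in either direction. With 14 Meg3 reads against 8, the difference was 1.13 ± 1.45 on the log2 scale (95% interval -1.70 to 3.97). With 10 Dlk1 reads against 12 it was 0.14 ± 1.23 (-2.27 to 2.55), and with 1 Rian read against 3 it was -1.16 ± 3.18 (-7.39 to 5.07). All had a DESeq2 adjusted p of 1.00, and Mirg had no read to test. At these counts a difference of several fold was not detectable. The Y-linked pattern was seen in 2 of 3 GF-Ern2-/- and 0 of 3 GF-WT libraries.

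Whether the response to colonization differed between the genotype labels was tested as an interaction over 12 libraries. Meg3 had an interaction of -4.30 ± 0.85 on the log2 scale (DESeq2 adjusted p = 0.00283), that is, a smaller rise in the libraries labelled Ern2-/-, and 0.0280% of all genes tested were called lower. Rian had -0.91 ± 1.57 (95% interval -3.98 to 2.17), Mirg -4.20 ± 2.01 (-8.15 to -0.26) and Dlk1 -1.69 ± 1.37 (-4.36 to 0.99), and none of these was called. The Meg3 call was not kept in edgeR (adjusted p = 0.659) or in 1 fit of all 18 libraries (DESeq2 adjusted p = 1.00). With the replicate block its DESeq2 adjusted p was 0.635 and with the Y-linked covariate 0.0661. It was kept in 4 of 12 DESeq2 fits that left out 1 library.

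**Figure D3:**
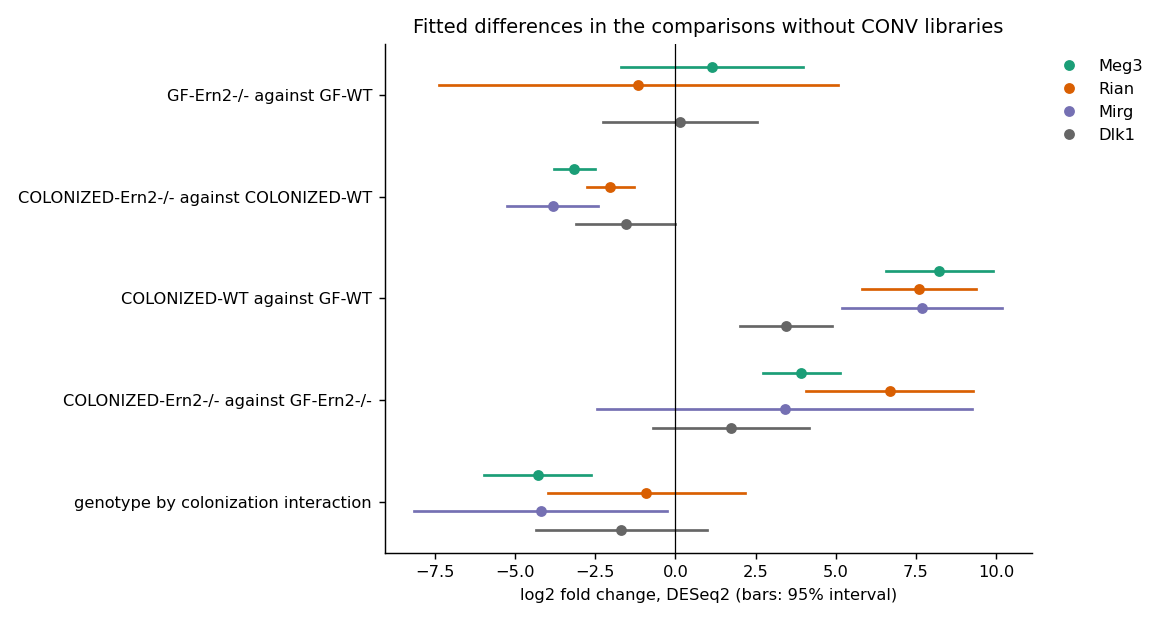
Log2 fold change in DESeq2 with its 95% interval for each member in the comparisons without CONV libraries, with the first-named group over the second, and the interaction. All 4 members lie above 0 in COLONIZED-WT against GF-WT, and the germ-free genotype intervals all cross 0. The fitted values of Mirg, which had no germ-free read, are not bounds.

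The CONV libraries are described without a test, since Meg3 and Rian were chosen on their difference. Between CONV-Ern2-/- and CONV-WT, Meg3 had 56 reads against 4805, a ratio of 58.0 in favour of WT (95% exact interval 44.6 to 76.8), and Rian had 8 against 1463, a ratio of 124 (62.5 to 287). Mirg, with 0 against 188 reads, was at least 42.3-fold lower. Dlk1 had 1 read against 429, a ratio of 290 with an interval from 51.7 to 11472. These intervals cover counting error only and leave out the spread between libraries, such as 1364, 3039 and 402 Meg3 reads in CONV-WT.
Meg3, Rian and Mirg did not overlap between these groups, and Dlk1 overlapped through CONV-WT replicate 3. Of all genes with 10 or more counts, 11.5% were lower without overlap. Since Meg3 and Rian were singled out on this contrast, their lack of overlap is a description and no support for a difference. The fitted log2 differences were -5.42 ± 0.75 for Meg3 and -6.58 ± 0.85 for Rian, and over fits without 1 library each they ran from -6.71 to -4.71 and from -7.17 to -5.97. That of Dlk1 was -7.76 ± 2.93 and ran from -8.31 to -6.61.
Against GF-WT, Meg3 in CONV-WT had a log2 difference of 9.76 ± 0.81 and Rian 9.39 ± 1.09, or 9.04 to 11.13 and 8.77 to 10.44 without 1 library each. Meg3, Rian and Mirg were each higher without overlap, beside 17.2% of all genes with 10 or more counts. Against COLONIZED-WT, the log2 differences of CONV-WT were 1.54 ± 0.55 for Meg3, 1.80 ± 0.65 for Rian, 1.17 ± 0.83 for Mirg and 2.16 ± 1.75 for Dlk1, and every member overlapped. Without 1 library each, these ran from 0.82 to 1.96, from 1.18 to 2.27, from 0.25 to 1.70 and from 1.00 to 2.75. These comparisons share their CONV-WT libraries. The Y-linked pattern was seen in 3 of 3 CONV-Ern2-/- and 1 of 3 CONV-WT libraries.

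Within libraries, Meg3 took between 56.4% and 92.7% of the reads on the 4 members in the 10 libraries with at least 20 such reads. Rian reads per Meg3 read were 0.106, 0.312 and 0.456 in COLONIZED-WT and 0.589, 0.409 and 0.568 in COLONIZED-Ern2-/-, so the groups overlapped. In CONV-WT they were 0.406, 0.279 and 0.154. COLONIZED-WT replicate 1, which had the most Meg3 in its group, thus had the least Rian, and the members did not keep 1 ratio from library to library.

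Other rows of the locus were nearly empty. Rtl1, a retrotransposon-derived gene on the minus strand whose span overlaps Meg3 and Rian, had 4 reads in all, 6430411K18Rik had 3, 3110009F21Rik had 1, and Begain, which lies before Dlk1, had 1 read in each of 2 libraries. AF357359, a small nucleolar RNA inside Rian, stood at 2.14, 2.20 and 1.59 normalized counts for COLONIZED-WT, at 0.712, 0.900 and 0 for COLONIZED-Ern2-/- and at 8.49, 7.90 and 0 for CONV-WT. It had none in germ-free or CONV-Ern2-/- libraries, and its reads cannot be told apart from those of Rian.
Dio3 is the thyroid hormone-inactivating deiodinase at the far end, and Dio3os is its opposite-strand transcript. Both were higher in colonized than in germ-free libraries, as Meg3 was, but did not follow Meg3 between the genotype labels after colonization. Dio3os had 4.28, 5.88 and 11.9 normalized counts in COLONIZED-WT and 12.1, 9.90 and 19.1 in COLONIZED-Ern2-/-, against 0 to 1.04 in germ-free libraries. It rose in COLONIZED-Ern2-/- against GF-Ern2-/- by 5.37 ± 1.43 on the log2 scale (DESeq2 adjusted p = 0.00322), from 47 reads against 1, and was not called with a replicate block or in edgeR. Dio3 had 2.85, 2.20 and 1.59 in COLONIZED-WT, 2.85, 6.30 and 5.01 in COLONIZED-Ern2-/-, and 1 read in all 6 CONV libraries. The COLONIZED-WT values came from 4, 3 and 2 reads and the COLONIZED-Ern2-/- values from 4, 7 and 5, near the floor of 3. No germ-free library held a Dio3 read. Thus neither was lower in COLONIZED-Ern2-/- than in COLONIZED-WT, where the 3 noncoding members were.

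Genes beyond the imprinted region, and imprinted genes elsewhere, were read from lists, beside the 9.35% of all genes tested that DESeq2 called higher and the 8.97% that it called lower in COLONIZED-WT against GF-WT. List shares near these are no result about a list, and with the Y-linked pattern as a covariate 231 genes were called there in place of 2498. Of 12 flanking genes, 2 were called higher and 0 lower in COLONIZED-WT against GF-WT, with a median log2 change of 0.04 beside -0.01 over all genes tested. The 2 were Hsp90aa1, a cytosolic chaperone (1.13 ± 0.20, DESeq2 adjusted p = 8.85e-07), and Wars, a tryptophan tRNA ligase (0.49 ± 0.13, 0.00103), and neither was called with that covariate. Between the genotype labels after colonization, where DESeq2 called 0.518% of all genes higher and 0.853% lower, 0 of 10 flanking genes tested, 2 of 24 other imprinted genes (Inpp5f at 0.92 ± 0.17 and Ascl2 at -1.27 ± 0.28) and 1 of 15 p53 targets (Trp53inp1 at 0.80 ± 0.21) were called. None of these 3 was called in edgeR or in the fit of all 18 libraries, Ascl2 was not called with the replicate block, and Trp53inp1 was not called with the Y-linked covariate.
Of 42 other imprinted genes, 27 had an adjusted p in COLONIZED-WT against GF-WT, of which 2 were called higher and 2 lower, with a median of 0.08. Airn (1.07 ± 0.31, DESeq2 adjusted p = 0.00376) and Kcnq1 (0.70 ± 0.17, 0.000410) rose, and Herc3 (-1.07 ± 0.19, 3.57e-07) and Ddc (-0.70 ± 0.18, 0.00111) fell, and none was called with the covariate. H19, another imprinted noncoding RNA, named after its values were seen, had at most 5.52 normalized counts in any library.
Among 20 imprint and chromatin factors, 16 had an adjusted p in COLONIZED-WT against GF-WT, with 3 called higher and 2 lower and a median of 0.10, and with the covariate Uhrf1 alone was called. Uhrf1 (1.61 ± 0.19, DESeq2 adjusted p = 1.10e-14) and Dnmt1 (0.82 ± 0.18, 5.54e-05), which maintain DNA methylation, rose, and Tet2 (-0.86 ± 0.20, 0.000301), a methylcytosine dioxygenase, fell. Between the genotype labels after colonization 0 of 16 were called. Of 15 p53 target genes, a list read because Meg3 is known to act on p53, 3 were called higher and 4 lower with colonization in WT (median -0.21), and 0 of 15 with the covariate. Without it Phlda3 rose (2.08 ± 0.51, DESeq2 adjusted p = 0.000483) and Cdkn1a, a cell cycle inhibitor, fell (-1.50 ± 0.29, 8.21e-06).

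Markers of other cell types were read beside the members, since fewer cells of a type and less RNA per cell cannot be told apart in bulk crypts. The summed level of 14 mesenchymal markers was 386 to 459 normalized counts in GF-WT and 410 to 730 in COLONIZED-WT, and 262 to 340 in COLONIZED-Ern2-/-. It was 535 to 1305 in CONV-WT and 314 to 618 in CONV-Ern2-/-. Within COLONIZED-WT, replicate 1 alone lay above the GF-WT range. Fn1, fibronectin, had 429, 93.3 and 178 normalized counts in COLONIZED-WT, 9.02 to 20.0 in GF-WT and 12.1 to 36.9 in COLONIZED-Ern2-/-.
Without Fn1, left out after its values were seen, the other 13 summed to 371 to 439 in GF-WT, 232 to 321 in COLONIZED-WT, 239 to 328 in COLONIZED-Ern2-/- and 239 to 402 in CONV-WT. They summed to 384 to 606 in GF-Ern2-/- and 246 to 602 in CONV-Ern2-/-, where Meg3 was at most 84.4. Of the 14, Lum and Col6a2 were at 0 in all COLONIZED-WT libraries, Col1a2 and Lum in all GF-WT libraries, and Pdgfra and Dpt in all COLONIZED-Ern2-/- libraries. None was at 0 in all libraries of CONV-WT, CONV-Ern2-/- or GF-Ern2-/-. Col1a1, a fibroblast collagen, stood at 3.57, 2.94 and 0.794 normalized counts after colonization of WT mice and at 6.60, 2.96 and 21.9 for CONV-WT. The 8 smooth muscle markers summed to 12.5 to 25.7 in COLONIZED-WT and 9.22 to 11.9 in GF-WT. In CONV-Ern2-/- replicates 1, 2 and 3 they summed to 14.6, 144 and 127, beside 9.40, 84.4 and 24.8 for Meg3. In CONV-WT replicates they summed to 17.0, 40.5 and 320, beside 1286, 3002 and 734 for Meg3. In COLONIZED-WT replicates they summed to 25.7, 12.5 and 13.5, beside 868, 416 and 432 for Meg3.
Goblet and deep crypt secretory markers differed in the COLONIZED comparisons too. Of 18, 11 were called higher and 2 lower in COLONIZED-WT against GF-WT, beside 9.35% and 8.97% of all genes tested. In COLONIZED-Ern2-/- against COLONIZED-WT 7 were called lower and 0 higher, beside 0.853% and 0.518%. The list medians were 0.90 and -0.87 beside -0.01 and 0.00 over all genes tested. In edgeR 6 of 18 were called higher with colonization, beside 398 of 12761 genes, and 1, Ang4, lower by genotype, beside 1 of 12722. In the fit of all 18 libraries 6 were called higher, beside 714 of 14036 genes, and 3 lower, beside 20 of 13343. With the Y-linked covariate 6 were called higher, beside 139 of 12005 genes, and 6 lower, beside 78 of 11961. In COLONIZED-Ern2-/- against GF-Ern2-/-, where Meg3 and Rian rose, 3 of 18 were called higher and 1 lower (median 0.40 beside -0.02), where 3.60% of all genes tested were called higher and 3.57% lower. There edgeR called 0 of 18 higher, beside 10 of 12519 genes, and the fit of all 18 libraries 1, beside 621 of 13689. The replicate block called 4 higher, beside 503 of 13320 genes, and the Y-linked covariate 3, beside 501 of 13320. None of these settings called any of the 18 lower. The sums for CONV-WT replicates were 734368, 655014 and 132221 normalized counts, and those for CONV-Ern2-/- were 92192, 106008 and 89244, so the groups did not overlap, as for Meg3, with a list median of -1.93 beside 0.02. Germ-free sums were 221268 to 340727 in WT and 110137 to 251972 in the libraries labelled Ern2-/-. Ang4, an antimicrobial ribonuclease of deep crypts, rose by 4.03 ± 1.00 in COLONIZED-WT against GF-WT and fell by 4.31 ± 0.27 in COLONIZED-Ern2-/- against COLONIZED-WT (DESeq2 adjusted p of 0.000681 and 1.74e-55). Its rise was not called in edgeR or with the Y-linked covariate. Retnlb, a goblet cell resistin-like protein, rose by 4.66 ± 0.31 and fell by 4.45 ± 0.78 in the same comparisons (DESeq2 adjusted p of 1.56e-46 and 5.73e-06), and its fall was not called in edgeR. Of 13 enteroendocrine markers with an adjusted p, 0 were called between the genotype labels after colonization in DESeq2, and 1, Tph1, with the Y-linked covariate. All 16 summed to 3067 to 4963 in COLONIZED-WT and 3242 to 8530 in COLONIZED-Ern2-/-. Sums of 8 endothelial markers were lower without overlap in COLONIZED-Ern2-/- (55.8 to 86.2) than in COLONIZED-WT (108 to 128), with 0 called of 1 tested. Sums of 8 stem cell markers were too (5457 to 6988 against 7821 to 9326). Among single genes with 10 or more counts, 14.0% were lower without overlap there. Of 7 stem cell markers tested, 1 was called lower and 0 higher, beside 0.853% and 0.518% of all genes tested. The 1 was Ascl2, already given among the imprinted genes, and it was not called in edgeR or in the fit of all 18 libraries. With the replicate block Smoc2 was called in its place. The part of any of these markers in the levels of the members was not tested.

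**Figure D4:**
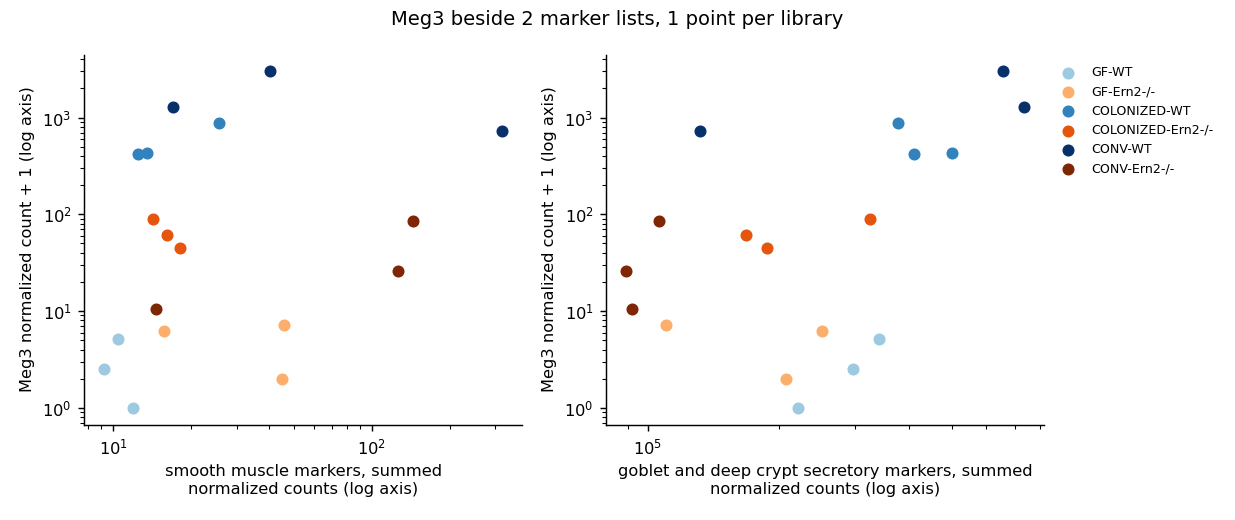
Meg3 normalized count + 1 against the summed normalized counts of 8 smooth muscle markers and of 18 goblet and deep crypt secretory markers, both on log axes, 1 point per library coloured by group. COLONIZED-WT libraries have Meg3 at 416 to 868 with smooth muscle sums of 12.5 to 25.7, and CONV-Ern2-/- libraries have the lowest secretory sums, 89244 to 106008.

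The genes whose pattern was most like each member were found by Pearson r of log2(normalized count + 1) over 18 libraries, which share group structure and depth, so r is a description. Among 11772 genes with a mean of 20 or more normalized counts (11773 for Mirg, itself below that mean), Meg3 was most like Scara5, a ferritin scavenger receptor (r = 0.970), and Bhlha15 (MIST1), a transcription factor of secretory cells (0.966), followed by Gadd45g, Arfip2 and Shf. Rian ranked next, at 0.953.
Bhlha15 had 32.04 ± 5.05 normalized counts in GF-WT and 244 ± 51.1 in COLONIZED-WT (SD, n = 3), and 151 ± 39.7 in COLONIZED-Ern2-/-. Rian was most like Rbp4, a retinol carrier (r = 0.965), then Shf, Amigo3, Gmppb and Meg3. Mirg was most like B3gnt9 (0.948), Rbp4, Tssc4, Pla2g16 and Spdef, the goblet cell transcription factor (0.922). Dlk1 was most like Fzd9, a Wnt receptor (0.885), Tmem248, Tspan13, Sar1a and Reep5, and its r to Meg3 was 0.607.
Within groups, by deviations from the 6 group means, Meg3 and Rian had r = 0.405, in place of 0.953 over the 18 libraries, and Meg3 and Dlk1 0.360, in place of 0.607. Mirg and Dlk1 had 0.931, in place of 0.850. CONV-WT replicate 3, with 3 Mirg reads and no Dlk1 read, and COLONIZED-Ern2-/- replicate 3, with none of either, were low for both. By deviations Meg3 was most like Kctd14, Clic4, Dennd2d, Sytl4 and Baiap2 (0.886 to 0.799), and Rian was again most like Rbp4 (0.968), then Kcnj2, Ccl6, Rpa3 and Hebp2. The deviations of Mirg were most like those of Prmt10 (0.947), Dlk1, Tifa, Zdhhc12 and Reep5, and those of Dlk1 like Zdhhc13 (0.927), Prmt10, Mmp28, Ero1l and Tinagl1.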

How the data were processed

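Colon crypts of 18 mice were measured by RNA-Seq. Per the labels and the study's methods, the authors prepared stranded mRNA libraries, aligned single-end reads with STAR in the VIPER pipeline and deposited whole-number read counts by gene symbol, neither normalized nor pooled. The submitters' processing notes name mm10, STAR and DESeq2. Versions, annotation and strand setting are not given in the sources used here, so overlapping genes such as Rtl1, Meg3 and Rian share uncertain reads. Columns of no sample came to 0, and 18217 of 24047 rows had a count.

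Each comparison was fitted on its own libraries with DESeq2 1.42.0 in R 4.3.3 (Wald test, median-ratio size factors, the default independent filtering and outlier filter, no shrinkage), and calls were made where the Benjamini-Hochberg adjusted p over all genes was under 0.01. A first complete run had filtered at alpha 0.01. The default, which the written design called for, was put back after the members' results of that run had been seen, and this took away the adjusted p of Mirg after colonization, so both settings are reported. edgeR 4.0.16 (quasi-likelihood, TMM), other size factors, a minimum of 10 counts, 1 fit of 18 libraries, a replicate block and leaving out each library were alternatives. The alternatives on independent filtering and on Y-linked transcripts were added after seeing the data. The fits were tested on simulated data.

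Members and lists were chosen with earlier results of these data known. Nothing says whether libraries of a group came from separate cages or litters, so p-values measure the spread between these libraries. Library totals were 5865619 to 23154481 counts. Intervals of pooled reads are exact (scipy 1.17.1) at 95%, floors are 3 counts, and both cover counting error only. The rule for named genes took the 4 members, the 5 genes most like each member, the counted locus genes (microRNAs and small nucleolar RNAs mostly as totals here), and from each list up to 4 called genes with the largest changes, or otherwise the highest. H19 and the stromal genes near 0 fall outside it and were chosen after their values were seen. RefSeq GRCm38.p6 and GENCODE M21 gave positions and sequences.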

Additional observations from a re-analysis of the deposited data

Results flagged for a closer look

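The rise of Meg3 with colonization was compared between the genotype labels by an interaction, which was -4.30 on the log2 scale (SE 0.85, DESeq2 adjusted p = 0.00283), and Meg3 was the 1 member called. The call was lost in edgeR (adjusted p = 0.659) and in DESeq2 with 1 fit of all 18 libraries (1.00), with a replicate block (0.635) and with the Y-linked pattern as a covariate (0.0661). The rise was 8.23 in WT and 3.93 in the libraries labelled Ern2-/-. The germ-free side rested on 8 and 14 reads. Over 12 fits that each left out 1 library the interaction ran from -5.68 to -3.70, was called in 4, missed the threshold in 7, with adjusted p up to 0.0638, and had no adjusted p in 1. No group exceeded 3 libraries, so single libraries were not tested as outliers.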

How the results depend on the processing

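The rise of Meg3, Rian and Mirg in COLONIZED-WT against GF-WT kept its direction and its call under every alternative that gave an adjusted p. That of Dlk1 was lost in edgeR (3.41) and in 1 DESeq2 fit of all 18 libraries (3.44). For COLONIZED-Ern2-/- against COLONIZED-WT, DESeq2 called 2 members. edgeR called 0 (Meg3 -3.15, Rian -2.03), as did the fit of 18 libraries (0 members, Meg3 -3.16, Rian -2.04). Mirg there had no adjusted p by default, and was not called in edgeR (-3.75) or in the fit of 18 libraries (-3.87). It was called with TMM size factors (-3.83), with genes under 10 counts removed (-3.82), with filtering at alpha 0.01, the setting of the first complete run (-3.82), without filtering (-3.82), and in 4 of 6 fits without 1 library, over which it ran from -4.86 to -3.32. For COLONIZED-Ern2-/- against GF-Ern2-/- edgeR called 0 of the 2 members (Meg3 3.90, Rian 6.39).

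The Meg3 interaction was not called in edgeR (-4.26, 0 members), the fit of 18 libraries (-4.29, 0 members) or with the Y-linked pattern as covariate (-4.02, 0 members). Correlations of same-numbered deviations ran from -0.24 to 0.61. Differently numbered libraries were not compared, so these values cannot tell whether replicate numbers pair the libraries. With the replicate block the interaction was -4.22 and 0 members were called, and no other member's call changed under the block. Over fits without 1 library it ran from -5.68 to -3.86 where an adjusted p was given and reached -3.70 where none was, with 0 to 1 members called. It lost its call without replicate 1 or 3 of GF-WT or GF-Ern2-/-, without COLONIZED-WT replicate 1, or without COLONIZED-Ern2-/- replicate 2 or 3. The germ-free difference of Dlk1, never called, ran from -0.42 to 1.10 and changed sign without GF-WT replicate 1 (-0.15) or 2 (-0.19) or GF-Ern2-/- replicate 3 (-0.42). The cause of these changes was not tested.

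Over all genes, DESeq2 and edgeR called 6 and 0 for germ-free genotype (254 and 194 at an unadjusted p under 0.05), 164 and 1 for genotype after colonization, 2498 and 630 for colonization in WT, 1000 and 27 in Ern2-/-, and 5 and 0 for the interaction (1030 and 947 unadjusted). With the Y-linked covariate colonization in WT gave 231. Without COLONIZED-WT replicate 1 or 3 it gave 1276 or 1550. Colonization in Ern2-/- gave 627, 449 or 553 without COLONIZED-Ern2-/- replicate 1, 2 or 3. Genotype after colonization gave 81 to 656 without 1 library (656 without COLONIZED-Ern2-/- replicate 1), and germ-free genotype 1 to 12. In 1 fit of all 18 libraries genotype gave 4 when germ free and 24 after colonization. Colonization there gave 1261 in WT and 1166 in Ern2-/-, and the interaction 3. The floor of 3 counts ran from 2.08 normalized counts in a GF-WT library to 8.28 in a CONV-Ern2-/- library. Alternatives that left Mirg without reads or an adjusted p gave no verdict on it.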

Other observations

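Tuft cell and enteroendocrine markers were among the genes called with colonization. Of 7 tuft cell markers with counts, 5 were called higher in COLONIZED-WT against GF-WT, beside 9.35% of all genes tested. The list's median log2 change was 1.35 beside -0.01 over all genes tested. Of 6 tested between the genotype labels after colonization 0 were called in DESeq2 (median 0.07). With the Y-linked pattern as a covariate 0 of 5 tuft markers tested were called with colonization in WT, and in edgeR 3 of 6. Of 16 enteroendocrine markers, 5 were called higher in COLONIZED-Ern2-/- against GF-Ern2-/-, beside 3.60% of all genes tested, and 0 of 15 in edgeR. In COLONIZED-WT against GF-WT 2 were called higher, beside 9.35% of all genes tested, and the difference between these counts was not tested. Chga, a granin of endocrine cells, rose by 2.33 ± 0.42 on the log2 scale in COLONIZED-Ern2-/- (DESeq2 adjusted p = 2.31e-06). The 8 enteric neuron markers summed to 57.3 to 80.2 normalized counts in COLONIZED-WT and 54.2 to 142 in COLONIZED-Ern2-/-, so the groups overlapped.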
